A study of Rattus norvegicus with 28 samples.

Results

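The genes described here carry the hormone signals of adrenaline, noradrenaline and glucagon in the left ventricle of the rat. They are the glucagon receptor gene Gcgr, the adrenergic receptor genes Adrb1, Adra1a and Adra1b, the adenylyl cyclase genes Adcy5 and Adcy6, and the genes of 2 proteins that damp such signals, Grk5 and Rgs2. A gene was taken where a probe carried its symbol alone in the array annotation, with the brightest probe standing for the gene. Of the 8 genes, 7 had such a probe, 1 each, and all 7 passed the filter on low values that left 11493 genes. Adra1b had none and was not analysed here.

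Whole transcript arrays were run on left ventricle RNA of 28 male rats in 3 groups. The treated dTGR group (12 arrays) held double transgenic rats, dTGR [SD-Tg(hAGT)L1623xTg(hREN)L10J], which carry the human genes of angiotensinogen and renin on the Sprague Dawley background and are labelled as a hypertension-induced model of heart failure with preserved ejection fraction, given BAY 41-8543, a stimulator of soluble guanylate cyclase, at 3 mg/kg/day. The vehicle dTGR group (8 arrays) held the same transgenic rats given Transcutol, Cremophor-EL and water. The SD group (8 arrays) held wildtype Sprague Dawley rats without treatment, so genotype and gavage cannot be told apart in any comparison with them. Per the labels, rats were assigned when 3.5 weeks old, daily gavage began at an age of 4 weeks, and hearts were taken at 7 weeks. A treatment of 4 weeks is stated elsewhere in the series' design, longer than these ages allow, and which length holds is not settled here. The probes measure rat genes, and the labels do not name the promoter of either transgene.

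Beta-1 adrenergic and glucagon receptors both couple to the stimulatory G protein, which switches on adenylyl cyclase. The cyclic AMP made by the cyclase activates protein kinase A, and in cardiomyocytes this raises the force and rate of contraction and the use of fuel. Alpha-1 adrenergic receptors couple instead to the Gq protein and phospholipase C. G protein-coupled receptor kinases phosphorylate active receptors and RGS proteins shorten the active state of G proteins, so both limit the signal. In the failing heart, loss of beta-1 receptors and a rise of receptor kinases are the textbook description of adrenergic desensitization.

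Promoter windows are shown for the gene with the largest differences, Gcgr, and for Adcy5 and Rgs2, which were also lower in treated dTGR than in SD hearts, so that the start regions of genes of the set can be set side by side. Each window runs from 250 bases before to 50 bases after a start site, 5′ to 3′ on the strand of the gene, from RefSeq on build GRCr8. Capitals mark matches to any of the motifs named after them. Gcgr has 2 start sites in the table, at chr10:106306553-106306852 (plus strand, start 1) and chr10:106307346-106307645 (plus strand, start 2). Adcy5 lies at chr11:79123294-79123593 (minus strand) and Rgs2 at chr13:58352617-58352916 (minus strand).
Gcgr start 1: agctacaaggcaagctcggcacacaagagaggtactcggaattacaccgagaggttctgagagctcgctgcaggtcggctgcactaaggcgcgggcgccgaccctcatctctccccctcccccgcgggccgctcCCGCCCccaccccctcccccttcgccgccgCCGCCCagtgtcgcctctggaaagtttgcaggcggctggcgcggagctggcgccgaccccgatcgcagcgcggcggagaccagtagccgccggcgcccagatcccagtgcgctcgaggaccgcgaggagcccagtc
Gcgr start 2: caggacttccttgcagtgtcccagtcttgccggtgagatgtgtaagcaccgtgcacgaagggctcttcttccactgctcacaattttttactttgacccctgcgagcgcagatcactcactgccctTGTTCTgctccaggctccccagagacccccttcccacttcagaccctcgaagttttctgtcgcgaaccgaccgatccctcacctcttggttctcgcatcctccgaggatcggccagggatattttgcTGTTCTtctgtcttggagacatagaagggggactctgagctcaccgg
Adcy5: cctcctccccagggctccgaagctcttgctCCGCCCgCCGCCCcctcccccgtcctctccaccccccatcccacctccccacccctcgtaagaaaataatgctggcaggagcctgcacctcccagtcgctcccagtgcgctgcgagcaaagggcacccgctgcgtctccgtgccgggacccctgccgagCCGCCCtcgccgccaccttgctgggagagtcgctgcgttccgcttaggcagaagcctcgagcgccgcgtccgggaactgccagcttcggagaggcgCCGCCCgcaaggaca
Rgs2: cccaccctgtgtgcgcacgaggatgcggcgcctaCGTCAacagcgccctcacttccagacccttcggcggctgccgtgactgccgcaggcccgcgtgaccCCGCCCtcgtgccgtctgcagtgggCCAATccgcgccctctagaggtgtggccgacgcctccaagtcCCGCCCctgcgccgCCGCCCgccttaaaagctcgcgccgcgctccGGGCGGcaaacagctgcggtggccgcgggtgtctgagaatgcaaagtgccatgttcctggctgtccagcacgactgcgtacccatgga

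Both strands were searched for 9 motifs, namely the cyclic AMP response element TGACGTCA and its core TGACG, which lies within it, the GC box GGGCGG, the CCAAT box, the glucocorticoid response core AGAACA, the E-box CACGTG, the hypoxia response core ACGTG, which lies within the E-box, the AP-1 site TGANTCA and the GATA site AGATAA. The 2 Gcgr windows differed: the start 1 window was 71.0% G and C and held 2 GC boxes, while the start 2 window was 55.7% G and C, held no GC box and held 2 glucocorticoid cores on the minus strand, from -124 to -119 and from 4 to 9. The median over all 33469 windows was 51.7% G and C. Adcy5 held 4 GC boxes and no other match. The Rgs2 window held a cyclic AMP core from -216 to -212, a CCAAT box from -125 to -121 and 4 GC boxes. Of all windows, 33.1% held a GC box, 20.7% the glucocorticoid core, 21.2% the cyclic AMP core and 37.5% a CCAAT box, so each of these is a common match. The full cyclic AMP response element (1.83% of all windows), the E-box (6.42%), the hypoxia core (19.3%), the AP-1 site (7.33%) and the GATA site (11.6%) had no match in the windows of the measured genes. Grk5 had no match to any motif, Adrb1 had a cyclic AMP core and a CCAAT box, and Adra1a and Adcy6 have no entry in the table. A match describes letters in a window and is not evidence of binding.

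The values are log2 of the deposited normalized intensity, here called the level, and a difference is the difference of group means with its standard error. Calls are adjusted p-values under 0.05, by limma over all 11493 genes with the Benjamini-Hochberg method. Levels of different probes are not comparable with each other. Of 7 ventricular cardiomyocyte markers tested, 1 was higher and 2 lower in vehicle dTGR against SD, 0 higher and 1 lower in treated against vehicle dTGR, and 1 higher and 2 lower in treated dTGR against SD. Their mean levels in the 3 groups ran from 10.52 for Irx4 to 16.39 for Tnnt2. On the first principal component, vehicle replicate 6 (-0.84) and vehicle replicate 7 (-2.92) fell inside the range of the treated group (-7.94 to 4.72), replicate 3 lay at 10.2, the other 5 vehicle arrays lay from 28.2 to 41.3, and SD arrays from -22.9 to -17.1. Where leaving both out changed a call or a sign of a value given here, or moved a called value by over 1.5 times, the value without them is given too. Replicates 6 and 7 were chosen with these data known and lay within the treated range. A larger difference or a call of treated against vehicle dTGR gained without them is therefore not independent support.

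**Figure D1:**
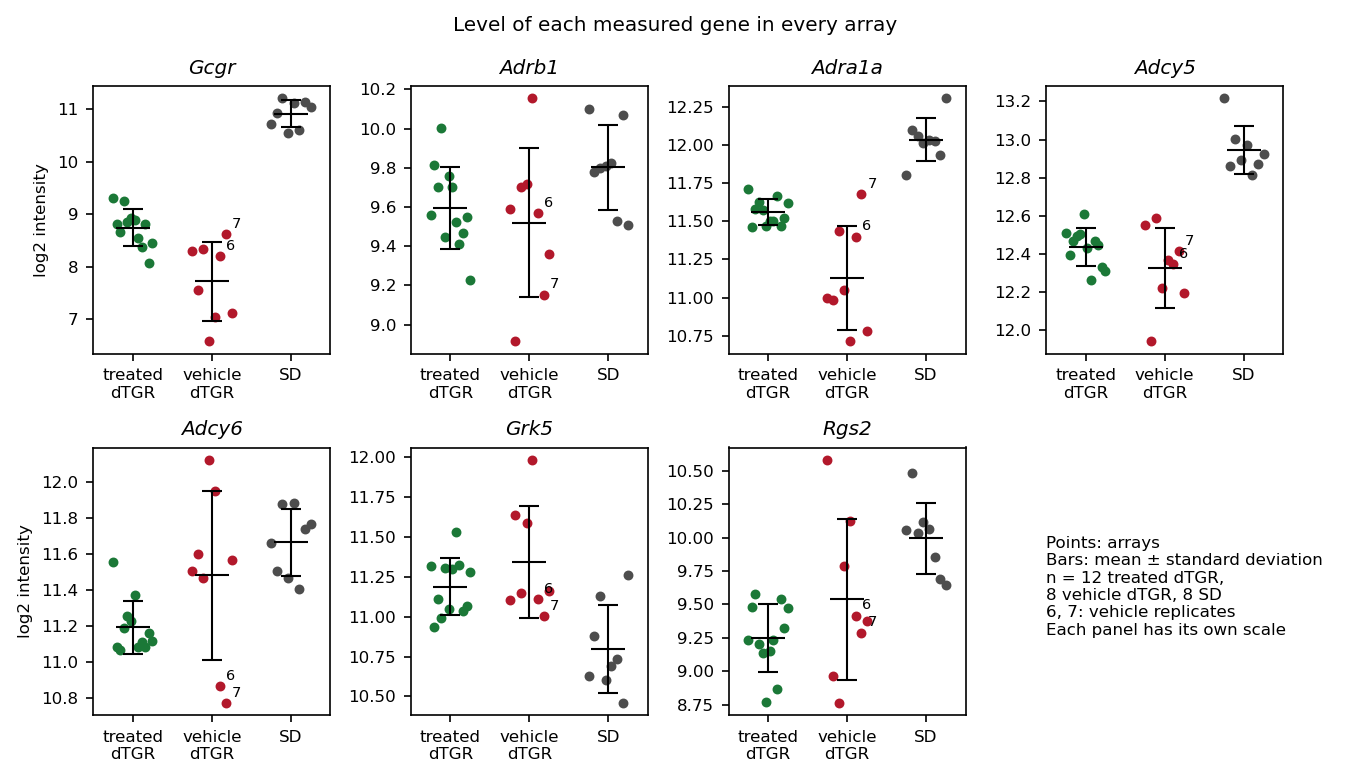
Level (log2 intensity, vertical axes with a scale per panel) of the 7 measured genes in each array, with group means and standard deviations as bars, for 12 treated dTGR, 8 vehicle dTGR and 8 SD arrays. Gcgr, Adra1a and Adcy5 show no overlap of either dTGR group with SD, and vehicle replicates 6 and 7, marked by number, are the lowest of their group for Adcy6 and among the highest for Adra1a.

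Gcgr, the receptor of the pancreatic hormone glucagon, was lower in both dTGR groups than in SD hearts, and higher in treated than in vehicle dTGR. Its level had a lowest, median and highest value of 8.06, 8.81 and 9.30 in treated dTGR, of 6.58, 7.88 and 8.62 in vehicle dTGR and of 10.55, 10.98 and 11.20 in SD. All arrays of both dTGR groups lay below the lowest SD array, while the treated and vehicle arrays overlapped between 8.06 and 8.62. The difference was -3.19 ± 0.22 for vehicle dTGR against SD (9.13-fold lower, adjusted p = 9.68e-12, lower in 8 of 8 arrays). Treated against vehicle dTGR gave 1.02 ± 0.20 (2.03-fold higher, adjusted p = 0.00179, 12 of 12 arrays above the vehicle mean). Treated dTGR were 4.50-fold below SD (-2.17 ± 0.20, adjusted p = 3.05e-09, 12 of 12 arrays). Vehicle replicates 7 (8.62), 3 (8.33) and 1 (8.30) were the highest of their group and replicates 4 (6.58), 5 (7.05) and 8 (7.12) the lowest. Without replicates 6 and 7 the difference of treated from vehicle dTGR was 1.25.

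Markers of cell types in which glucagon receptors are well known, or that lie around the heart, were set beside Gcgr. Of 6 hepatocyte markers tested, 0 were called in any of the 3 comparisons. Their summed intensity was 1560 to 21574 in treated dTGR, 1563 to 17446 in vehicle dTGR and 1260 to 19191 in SD. Of 5 adipocyte markers tested, Fabp4, which endothelial cells also express, was the called gene, higher in vehicle dTGR than in SD and lower in treated than in vehicle dTGR. Adipoq, which defines adipocytes, stood at mean levels of 5.68, 5.96 and 5.75 in treated, vehicle and SD hearts, close to the filter level of 5.65. The summed adipocyte intensity was 6261 to 10228 in treated dTGR, 7631 to 14284 in vehicle dTGR and 5700 to 9625 in SD. With Adipoq near the filter intensity of 50.2, most of this sum comes from other genes of the list. The sum is therefore not a measure of the amount of adipocytes. Mesothelial markers, from the lining of the heart, moved with Gcgr in the comparisons with SD. Of 5 tested, 4 (Msln, Upk3b, Upk1b and Lrrn4) were lower in vehicle dTGR than in SD (median -2.20) and 4 were lower in treated dTGR than in SD (median -1.74), while 0 were called in treated against vehicle dTGR (median 0.38). Their summed intensity was 220 to 925 in treated dTGR, 234 to 448 in vehicle dTGR and 559 to 2590 in SD. Of 3 erythroid markers tested, 2 were lower in vehicle dTGR than in SD (median -1.04), 2 were lower in treated dTGR than in SD (median -1.27) and 0 were called in treated against vehicle dTGR. Their summed intensity was 2634 to 10299 in treated dTGR, 3128 to 11727 in vehicle dTGR and 9197 to 19046 in SD. Of 4 atrial cardiomyocyte markers tested, 1 was higher and 2 lower in each comparison with SD, with 0 called in treated against vehicle dTGR. The part of these cells in the Gcgr difference was not tested, and in a bulk biopsy fewer cells of a type and less RNA per cell cannot be told apart.

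Adra1a, the alpha-1A adrenergic receptor, followed the same order of groups with smaller steps. Its level ran from 11.47 through a median of 11.55 to 11.71 in treated dTGR, from 10.71 through 11.03 to 11.68 in vehicle dTGR and from 11.81 through 12.03 to 12.31 in SD. No dTGR array reached the lowest SD array, and the treated arrays all lay above the vehicle median, with treated replicate 1 (11.71) also above the highest vehicle array. Vehicle dTGR were 1.87-fold below SD (-0.90 ± 0.10, adjusted p = 3.87e-08, 8 of 8 arrays). Treated dTGR were 1.35-fold above vehicle dTGR (0.43 ± 0.09, adjusted p = 0.00263, 12 of 12 arrays) and 1.39-fold below SD (-0.47 ± 0.09, adjusted p = 0.000207, 12 of 12 arrays). The standard deviation was 0.08 in treated dTGR (n = 12), 0.34 in vehicle dTGR (n = 8) and 0.14 in SD (n = 8). Vehicle replicates 7 (11.68), 3 (11.44) and 6 (11.40) were the highest of their group, and without 6 and 7 the difference of treated from vehicle dTGR was 0.56.

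Adrb1, the beta-1 adrenergic receptor and main beta receptor of the cardiomyocyte, was not called in any comparison. Its level ran from 9.23 through 9.55 to 10.00 in treated dTGR, from 8.91 through 9.58 to 10.16 in vehicle dTGR and from 9.51 through 9.80 to 10.10 in SD, and the 3 groups overlapped. Vehicle dTGR against SD gave -0.28 ± 0.13, with a 95% confidence interval from -0.55 to -0.017 before adjustment and an adjusted p of 0.119. Without vehicle replicate 5, the highest of its group at 10.16, this difference was -0.37 and was called, at an adjusted p of 0.0239. Treated against vehicle dTGR gave 0.077 ± 0.12 (interval -0.17 to 0.32, adjusted p = 0.761; 0.024 without vehicle replicates 6 and 7), and treated dTGR against SD gave -0.21 ± 0.12 (interval -0.45 to 0.037, adjusted p = 0.269). The intervals leave room for a loss of up to 0.55 in vehicle dTGR, so a smaller change of the beta-1 receptor gene is not shown to be absent.

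Adcy5, a main adenylyl cyclase of the cardiomyocyte together with Adcy6, was lower in both dTGR groups than in SD. Its level ran from 12.26 through 12.46 to 12.61 in treated dTGR, from 11.94 through 12.36 to 12.59 in vehicle dTGR and from 12.81 through 12.91 to 13.22 in SD. Every dTGR array lay below every SD array. Vehicle dTGR were 1.53-fold below SD (-0.62 ± 0.07, adjusted p = 1.62e-07, 8 of 8 arrays), and treated dTGR were 1.42-fold below SD (-0.51 ± 0.07, adjusted p = 8.51e-07, 12 of 12 arrays). Unlike Gcgr and Adra1a, Adcy5 was not called between treated and vehicle dTGR (0.11 ± 0.07, interval -0.026 to 0.24, adjusted p = 0.348), and whether its change differs from theirs was not tested.

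Adcy6 gave another pattern, in which the treated group was the lowest. Its level ran from 11.07 through 11.14 to 11.56 in treated dTGR, from 10.78 through 11.54 to 12.12 in vehicle dTGR and from 11.41 through 11.70 to 11.88 in SD. Treated dTGR were 1.39-fold below SD (-0.47 ± 0.12, adjusted p = 0.00518, 12 of 12 arrays below the SD mean), with treated replicate 1 at 11.56 and replicate 7 at 11.37 as the highest of their group. Vehicle dTGR against SD was not called (-0.18 ± 0.13, interval -0.45 to 0.084, adjusted p = 0.352), nor was treated against vehicle dTGR (-0.29 ± 0.12, interval -0.53 to -0.045 before adjustment, adjusted p = 0.13). The vehicle group was split: replicates 6 and 7 stood at 10.87 and 10.78, below every treated array, and the other 6 stood between 11.46 and 12.12. Without both, the difference of vehicle dTGR from SD was 0.037 (adjusted p = 0.839), a turn of its sign, and that of treated from vehicle dTGR was -0.51 and called (adjusted p = 0.000117). Both arrays were chosen with these data known and are the lowest of their group for Adcy6, so these values are a description. Leaving out replicate 6 alone also gave a call for treated against vehicle dTGR, with -0.38 (adjusted p = 0.0224), as did leaving out replicate 7 alone, with -0.39 (adjusted p = 0.0135).

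Grk5, a receptor kinase of the heart, was the gene of the set that was higher in dTGR. Its level ran from 10.93 through 11.19 to 11.53 in treated dTGR, from 11.004 through 11.15 to 11.98 in vehicle dTGR and from 10.46 through 10.71 to 11.26 in SD. SD replicates 8 (11.26) and 3 (11.13) reached into the range of both dTGR groups. Vehicle dTGR were 1.46-fold above SD (0.54 ± 0.12, adjusted p = 0.00124, 8 of 8 arrays), and treated dTGR were 1.31-fold above SD (0.39 ± 0.11, adjusted p = 0.014, 12 of 12 arrays). Treated against vehicle dTGR was not called (-0.15 ± 0.11, interval -0.38 to 0.074, adjusted p = 0.45; -0.25 without vehicle replicates 6 and 7, adjusted p = 0.157). Vehicle replicates 5 (11.98), 2 (11.64) and 4 (11.58) stood above all treated arrays, and the other 5 vehicle arrays lay between 11.004 and 11.16.

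Rgs2, an RGS protein that acts above all on Gq and so on alpha-1 and angiotensin receptor signals, was lower in treated dTGR than in SD. Its level ran from 8.77 through 9.23 to 9.58 in treated dTGR, from 8.76 through 9.40 to 10.58 in vehicle dTGR and from 9.65 through 10.04 to 10.49 in SD. All treated arrays lay below all SD arrays, a difference of -0.74 ± 0.16 (1.67-fold lower, adjusted p = 0.00136, 12 of 12 arrays). Vehicle arrays spanned the ranges of both other groups, from replicate 3 (8.76) and replicate 2 (8.97) to replicate 5 (10.12) and replicate 1 (10.58). Vehicle dTGR against SD was not called (-0.46 ± 0.18, adjusted p = 0.0631), but it was called without vehicle replicate 1 (-0.60, adjusted p = 0.00485), without vehicle replicate 5 (-0.54, adjusted p = 0.0273), without SD replicate 8 (-0.51, adjusted p = 0.0481) and with array weights (-0.54, adjusted p = 0.0244). Treated against vehicle dTGR was not called (-0.29 ± 0.16, interval -0.62 to 0.046, adjusted p = 0.305).

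**Figure D2:**
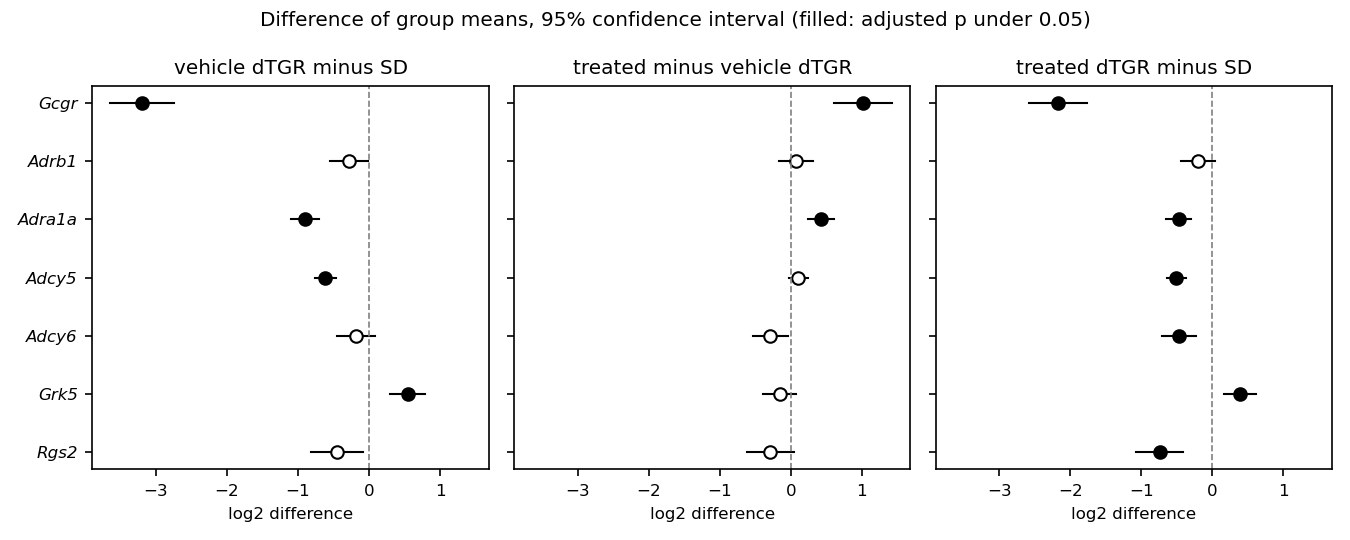
Differences of group means (log2, horizontal axes) of the 7 genes in the 3 comparisons, with 95% confidence intervals from the limma fit as lines. Filled points mark an adjusted p under 0.05: 4 genes in vehicle dTGR minus SD, 2 in treated minus vehicle dTGR and 6 in treated dTGR minus SD.

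Counted over the set, vehicle dTGR against SD had 3 genes lower (Gcgr, Adra1a, Adcy5), 1 higher (Grk5) and 3 not called. Among all genes tested, 23.8% were called in this comparison, 12.1% higher and 11.7% lower. The arrays of the 2 groups did not overlap for 3 of the 7 genes, against 4.07% of all genes. Treated against vehicle dTGR had 2 genes higher (Gcgr, Adra1a), 0 lower and 5 not called, where 9.79% of all genes were called, 5.37% higher and 4.42% lower. For none of the 7 did the treated and vehicle arrays stand fully apart, which held for 0.0609% of all genes. Without vehicle replicates 6 and 7, Adcy6 joined the called genes, which made 3. Treated dTGR against SD had 5 genes lower (Gcgr, Adra1a, Adcy5, Adcy6, Rgs2), 1 higher (Grk5) and 1 not called, where 17.4% of all genes were called, 9.54% higher and 7.87% lower. The 2 groups did not overlap for 4 of the 7 genes, against 3% of all genes. The genes were chosen with earlier results of these arrays known, so these counts describe the set and are no test of it. The median difference of the 7 genes was -0.46 in vehicle dTGR against SD, 0.077 in treated against vehicle dTGR and -0.47 in treated dTGR against SD, beside medians of 0.0033, 0.0097 and 0.014 over all genes. The vehicle arrays serve in both of the first 2 comparisons and the SD arrays in both comparisons with SD, so these values are not independent of each other.

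**Figure D3:**
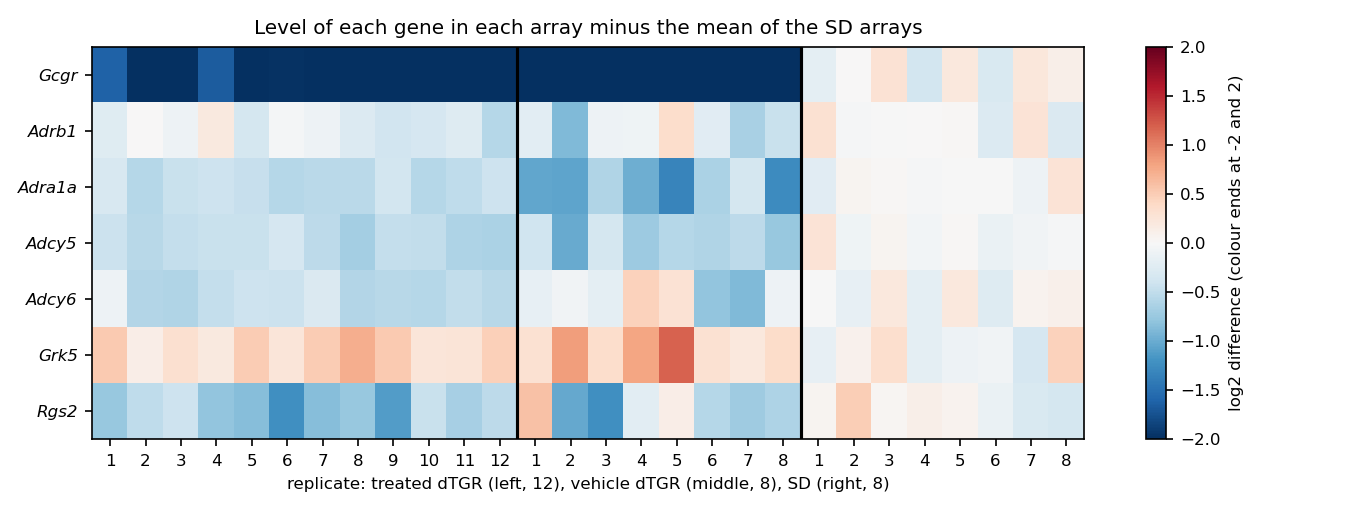
Level of each of the 7 genes (rows) in each array (columns: treated dTGR, vehicle dTGR, SD) minus the mean of the SD arrays for that gene, on a log2 colour scale that ends at -2 and 2. Gcgr is low in every dTGR array, the treated columns resemble each other, and the vehicle columns vary from array to array in Adra1a, Adcy6, Grk5 and Rgs2.

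The spread between arrays also differed between groups. The standard deviation of the level was larger in vehicle than in treated dTGR for 7 of 7 genes, where 65.1% of all genes had that order. It was also larger in vehicle dTGR than in SD for 7 of 7 genes, where 61.9% of all genes had that order. For Gcgr it was 0.35 in treated dTGR, 0.75 in vehicle dTGR and 0.26 in SD, and for Rgs2 it was 0.25, 0.60 and 0.27 in the same groups. Vehicle replicate 5 had the highest level of Adrb1 and Grk5 and the lowest of Adra1a in its group, and replicates 6 and 7 had the lowest Adcy6. Some array is always the highest or lowest of a group, so these positions are a description. No test of the spread was made.

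The genes around these members were described by 11 lists, from receptors to cyclic AMP response genes. Of 174 listed genes other than the members, 112 were tested. Vehicle dTGR against SD had 19 of them higher, 18 lower and 75 not called, with a median difference of 0.03. Treated against vehicle dTGR had 10 higher, 11 lower and 91 not called, and treated dTGR against SD had 13 higher, 13 lower and 86 not called. Without vehicle replicates 6 and 7, the calls of treated against vehicle dTGR were 32, 16 in each direction. Of all genes tested, 12.1% were higher and 11.7% lower in vehicle dTGR against SD. The shares were 5.37% and 4.42% in treated against vehicle dTGR, and 9.54% and 7.87% in treated dTGR against SD. They are the background of all list and marker counts given here, which are no test of a list. Adrb3, Adcy9, Rgs5, Prkar1a and Plcb1 have no probe with the symbol alone and were not analysed here, and the incretin receptor genes Glp1r and Gipr were under the filter, with group means from 5.13 to 5.48.

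**Figure D4:**
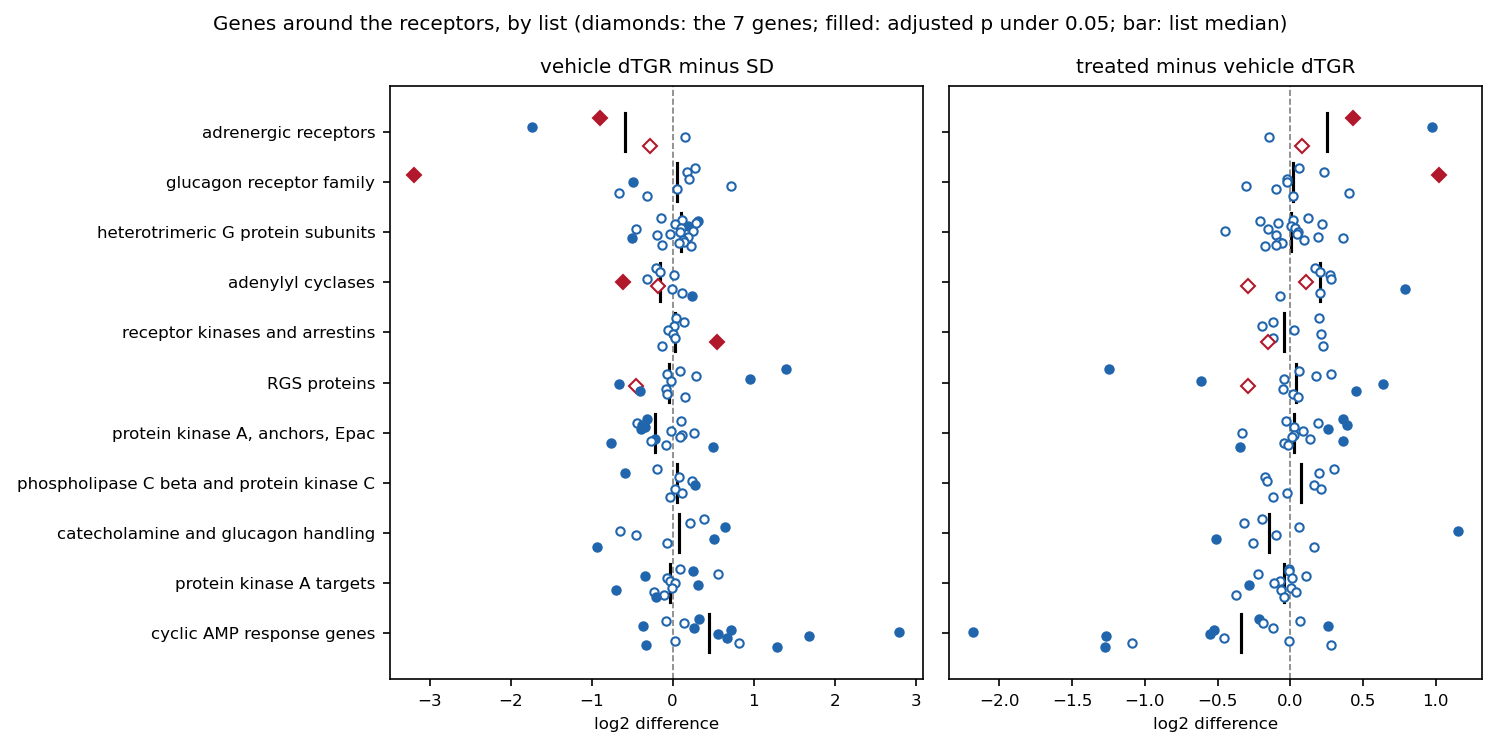
Differences (log2, horizontal axes) of all tested genes of the 11 lists in vehicle dTGR minus SD and in treated minus vehicle dTGR, filled where the adjusted p is under 0.05, with the median of each list, members included, as a bar and the 7 genes of the set as diamonds. Gcgr lies apart from its receptor family on both sides, and the cyclic AMP response genes lie mostly to the right of 0 in vehicle dTGR minus SD and to the left in treated minus vehicle dTGR.

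Among the other adrenergic receptors, 2 of 6 were measured. Adra1d, the alpha-1D receptor of vascular smooth muscle, averaged 8.18 ± 0.52 in treated dTGR (n = 12), 7.21 ± 1.05 in vehicle dTGR (n = 8) and 8.95 ± 0.39 in SD (n = 8; standard deviations). It was lower in vehicle dTGR than in SD (-1.73 ± 0.31, adjusted p = 0.000101, 8 of 8 arrays) and higher in treated than in vehicle dTGR (0.97 ± 0.29, adjusted p = 0.0272, 12 of 12 arrays). The last call was lost without vehicle replicate 1, 2, 4, 5 or 8 (adjusted p from 0.0555 to 0.0866) and with only those 2 groups in the fit (0.0579). Without vehicle replicates 6 and 7 this difference was 1.48 (adjusted p = 1.72e-05). Of 5 smooth muscle and pericyte markers tested, 3 were higher and 0 lower in vehicle dTGR against SD, and 1 was higher and 0 lower in treated against vehicle dTGR, and their part in the Adra1d differences was not tested. Adra2c, an alpha-2 receptor that was named after its value was seen, had mean levels of 5.71, 5.86 and 5.70 in treated, vehicle and SD hearts, close to the filter level. Both alpha-1 receptor genes that were measured were thus lower in vehicle dTGR than in SD.

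In the family of the glucagon receptor, 8 genes other than Gcgr were tested. Vehicle dTGR against SD had 0 higher, 1 lower and 7 not called, with a median of 0.11, and treated against vehicle dTGR had 0 called. Ramp1, an accessory protein of the calcitonin-like receptor, was the lower gene (-0.49 ± 0.17, adjusted p = 0.0317), and its call was lost without SD replicate 4 or 6 or vehicle replicate 3, 5 or 7, without vehicle replicates 6 and 7, or with array weights (adjusted p from 0.0512 to 0.0833). Calcrl, the calcitonin-like receptor through which adrenomedullin acts, was higher in treated dTGR than in SD (0.41 ± 0.08, adjusted p = 0.000314, 12 of 12 arrays), and Ramp1 was lower there (-0.51 ± 0.15, adjusted p = 0.0175, 11 of 12 arrays). Gcg, the gene of the hormone glucagon itself, was not called in vehicle dTGR against SD (0.22 ± 0.23); it was named after its value was seen.

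Heterotrimeric G protein subunits had 2 of 19 tested genes higher, 1 lower and 16 not called in vehicle dTGR against SD (median 0.10), and 0 called in treated against vehicle dTGR (median 0.01). Gnai2, the inhibitory alpha subunit, was 0.19 ± 0.05 higher in vehicle dTGR than in SD (adjusted p = 0.00868, 7 of 8 arrays), and Gna13 was 0.32 ± 0.09 higher (adjusted p = 0.00963, 7 of 8 arrays). Gng11, a gamma subunit, was lower (-0.50 ± 0.14, adjusted p = 0.00948, 7 of 8 arrays). Gnaq, the alpha subunit used by alpha-1 receptors, was not called in vehicle dTGR against SD (0.10 ± 0.09) or in treated against vehicle dTGR (0.03 ± 0.08). Gnas, the stimulatory alpha subunit, had mean levels of 5.67, 5.83 and 6.28 in treated, vehicle and SD hearts, near the filter level, and was not called in vehicle dTGR against SD (-0.46 ± 0.20, adjusted p = 0.101) or in treated against vehicle dTGR (-0.15 ± 0.18, adjusted p = 0.693). Gnas was lower in treated dTGR than in SD (-0.61 ± 0.18, adjusted p = 0.0189, 12 of 12 arrays), a call that was lost without SD replicate 2 (adjusted p = 0.0568) or SD replicate 6 (adjusted p = 0.0526). Gnas passed the filter in 38 of 40 alternatives, so its probe is a weak measure of this subunit.

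Of 7 further adenylyl cyclase list genes, 1 was higher and 0 lower in vehicle dTGR against SD (median -0.01), and 1 was higher and 0 lower in treated against vehicle dTGR (median 0.20). The first was Cap2, a cyclase-associated actin regulator (0.23 ± 0.06, adjusted p = 0.00482, 8 of 8 arrays). The second was Adcy7, a cyclase known from blood and endothelial cells, which averaged 10.15 ± 0.36 in treated dTGR (n = 12), 9.36 ± 0.74 in vehicle dTGR (n = 8) and 9.37 ± 0.28 in SD (n = 8; standard deviations). Adcy7 was higher in treated dTGR than in vehicle dTGR (0.79 ± 0.20, adjusted p = 0.0111, 12 of 12 arrays) and than in SD (0.78 ± 0.20, adjusted p = 0.00606, 12 of 12 arrays). Endothelial markers, of which 6 were tested, had 2 higher and 3 lower in treated against vehicle dTGR (median -0.07) and 2 higher and 1 lower in treated dTGR against SD (median 0.25). Monocyte and macrophage markers, also 6 tested, had 1 higher and 1 lower in treated against vehicle dTGR (median -0.21) and 2 higher and 0 lower in treated dTGR against SD (median 0.28). The part of these cells in the Adcy7 difference was not tested.

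Receptor kinases and arrestins other than Grk5 had 0 of 7 genes called in vehicle dTGR against SD, 0 in treated against vehicle dTGR, and 1 higher in treated dTGR against SD. Grk2, the receptor kinase best known from the failing heart, had mean levels of 10.75 in treated dTGR, 10.72 in vehicle dTGR and 10.77 in SD, and its difference of vehicle dTGR from SD was -0.05 ± 0.06 (adjusted p = 0.636). Grk6 gave -0.13 ± 0.11 and the arrestin genes Arrb1 and Arrb2 gave 0.04 ± 0.09 and 0.14 ± 0.13 in the same comparison. In treated against vehicle dTGR, Grk2 gave 0.03 ± 0.06, Grk6 0.22 ± 0.10, Arrb1 0.20 ± 0.08 and Arrb2 -0.12 ± 0.11. The gene that was higher in treated dTGR than in SD was Arrb1 (0.24 ± 0.08, adjusted p = 0.0432, 11 of 12 arrays), and this call was lost in 14 of 40 alternatives, 12 of which left out 1 array (SD replicate 1, 6, 7 or 8, or treated replicate 1, 3, 7, 8, 9, 10, 11 or 12), with adjusted p from 0.051 to 0.13.

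RGS proteins other than Rgs2 had 2 of 11 tested genes higher and 2 lower in vehicle dTGR against SD, and 2 higher and 2 lower in treated against vehicle dTGR. Rgs1, known from lymphoid and myeloid cells, averaged 6.40 ± 0.49 in treated dTGR (n = 12), 7.65 ± 0.89 in vehicle dTGR (n = 8) and 6.24 ± 0.34 in SD (n = 8; standard deviations). It was higher in vehicle dTGR than in SD (1.40 ± 0.28, adjusted p = 0.000334, 7 of 8 arrays) and lower in treated than in vehicle dTGR (-1.24 ± 0.26, adjusted p = 0.00263, 12 of 12 arrays). Rgs16 was higher than in SD in vehicle dTGR (0.95 ± 0.17, adjusted p = 0.000107) and in treated dTGR (0.90 ± 0.16, adjusted p = 9.14e-05). Rgs4, an RGS protein of cardiac muscle, was lower in vehicle dTGR than in SD (-0.40 ± 0.13, adjusted p = 0.0191, 6 of 8 arrays) and higher in treated than in vehicle dTGR (0.45 ± 0.12, adjusted p = 0.0117, 12 of 12 arrays). The call of Rgs4 against SD was lost without vehicle replicate 1 (adjusted p = 0.0535) and with only those 2 groups in the fit (0.0624). Rgs17 was lower in treated dTGR than in vehicle dTGR (-0.61 ± 0.16, adjusted p = 0.012) and than in SD (-0.64 ± 0.16, adjusted p = 0.00426). Of 6 monocyte and macrophage markers tested beside Rgs1, 4 were higher and 1 lower in vehicle dTGR against SD. In treated against vehicle dTGR, 1 was higher and 1 lower. The summed intensity of the 6 markers was 14911 to 35488 in treated dTGR, 17253 to 37811 in vehicle dTGR and 15016 to 23627 in SD. The part of these cells in the Rgs1 differences was not tested.

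Below cyclic AMP, the list of protein kinase A, its inhibitors and anchors and the exchange factor Epac had 1 of 15 tested genes higher and 6 lower in vehicle dTGR against SD (median -0.21), and 4 higher and 1 lower in treated against vehicle dTGR (median 0.03). Prkaca, the main catalytic subunit, was lower in vehicle dTGR than in SD (-0.21 ± 0.06, adjusted p = 0.00477, 8 of 8 arrays) and was not called in treated against vehicle dTGR (0.14 ± 0.05, adjusted p = 0.0857). It was called there without vehicle replicates 6 and 7 (0.18, adjusted p = 0.0213), without vehicle replicate 6 alone (0.16, adjusted p = 0.037) and without treated replicate 9 (0.16, adjusted p = 0.0295). Prkar1b, a regulatory subunit, was also lower in vehicle dTGR (-0.76 ± 0.22, adjusted p = 0.012), as was Bves, a cyclic AMP-binding membrane protein of muscle (-0.39 ± 0.07, adjusted p = 0.000154). The Epac gene Rapgef3 was the higher gene (0.50 ± 0.12, adjusted p = 0.00219, 8 of 8 arrays). In treated against vehicle dTGR, the catalytic subunit gene Prkacb (0.36 ± 0.09, adjusted p = 0.0101) and the anchor genes Akap6 (0.39 ± 0.09, adjusted p = 0.00438) and Akap1 (0.36 ± 0.08, adjusted p = 0.00513) were higher. The 7 ventricular cardiomyocyte markers had 1 gene higher and 2 lower in vehicle dTGR against SD and 0 higher and 1 lower in treated against vehicle dTGR. Their summed intensity was 354695 to 389643 in treated dTGR, 371450 to 396518 in vehicle dTGR and 357301 to 384635 in SD.

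Protein kinase A targets of the cardiomyocyte had 2 of 13 tested genes higher and 3 lower in vehicle dTGR against SD (median -0.04). Ppp1r1a, inhibitor 1 of protein phosphatase 1, which works when protein kinase A has phosphorylated it, was lower than in SD in vehicle dTGR (-0.69 ± 0.11, adjusted p = 1.36e-05, 8 of 8 arrays) and in treated dTGR (-0.76 ± 0.10, adjusted p = 9.5e-07, 12 of 12 arrays). Ppp1cb, a catalytic subunit of that phosphatase, was higher in vehicle dTGR than in SD (0.31 ± 0.08, adjusted p = 0.00666, 6 of 8 arrays) and lower in treated than in vehicle dTGR (-0.29 ± 0.08, adjusted p = 0.0151, 12 of 12 arrays). Kcnq1, a potassium channel subunit under adrenergic control, was lower in vehicle dTGR than in SD (-0.34 ± 0.07, adjusted p = 0.000716, 8 of 8 arrays). Phospholamban, Pln, was not called in vehicle dTGR against SD (-0.04 ± 0.04) or in treated against vehicle dTGR (-0.07 ± 0.04). It was lower in treated dTGR than in SD (-0.11 ± 0.04, adjusted p = 0.0421, 10 of 12 arrays), and this call was lost in 14 of 40 alternatives, among them leaving out SD replicate 3, 5, 6, 7 or 8 or treated replicate 1, 3, 5, 7, 9, 10 or 11, with adjusted p from 0.0551 to 0.0963.

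Cyclic AMP response genes had 8 of 14 tested genes higher and 2 lower in vehicle dTGR against SD (median 0.44), and 1 higher and 6 lower in treated against vehicle dTGR (median -0.34). Sik1, a kinase induced by cyclic AMP, averaged 9.61 ± 0.30 in treated dTGR (n = 12), 10.88 ± 1.17 in vehicle dTGR (n = 8) and 9.60 ± 0.25 in SD (n = 8; standard deviations). It was higher in vehicle dTGR than in SD (1.29 ± 0.30, adjusted p = 0.00153, 6 of 8 arrays) and lower in treated than in vehicle dTGR (-1.27 ± 0.27, adjusted p = 0.00341, 12 of 12 arrays). Nr4a1, an orphan nuclear receptor, was also higher in vehicle dTGR than in SD (1.68 ± 0.42, adjusted p = 0.00303, 8 of 8 arrays). It was lower in treated than in vehicle dTGR (-1.27, adjusted p = 0.0305), a call that was lost in 4 of 40 alternatives. The largest differences of the list were those of Fos, higher in vehicle dTGR than in SD (2.80, adjusted p = 0.000566) and lower in treated than in vehicle dTGR (-2.18, adjusted p = 0.00847). Many genes of this list, Fos and Nr4a1 among them, are immediate early genes that answer to other signals too. Treated dTGR against SD had 0 of the 14 genes called (median 0.02).

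On the supply side, the list of catecholamine and glucagon synthesis, uptake and breakdown had 2 of 8 tested genes higher and 1 lower in vehicle dTGR against SD (median 0.08). In treated against vehicle dTGR, 1 was higher and 1 lower (median -0.15). Maoa, a monoamine oxidase that breaks down noradrenaline, was higher than in SD in vehicle dTGR (0.65 ± 0.17, adjusted p = 0.00485, 8 of 8 arrays) and in treated dTGR (0.71 ± 0.16, adjusted p = 0.00132, 12 of 12 arrays). Slc22a3, the extraneuronal monoamine transporter, was lower than in SD in vehicle dTGR (-0.93 ± 0.16, adjusted p = 6.33e-05, 8 of 8 arrays) and in treated dTGR (-0.77 ± 0.15, adjusted p = 0.000304, 12 of 12 arrays). Maob, the other monoamine oxidase, was higher in treated than in vehicle dTGR (1.15 ± 0.24, adjusted p = 0.00296, 12 of 12 arrays). Slc18a1 was the other gene higher in vehicle dTGR than in SD (0.51, adjusted p = 0.0302), a call that was lost in 6 of 40 alternatives. It was lower in treated than in vehicle dTGR (-0.51, adjusted p = 0.0363), a call that was lost in 11 of 40 alternatives. Markers of sympathetic nerve and Schwann cells had 0 of 4 tested genes called in either of the first 2 comparisons. In treated dTGR against SD, 0 were higher and 1 was lower (median -0.20). The lower gene was Npy (-0.55, adjusted p = 0.022), a call that was lost without SD replicate 3 (adjusted p = 0.0543) or SD replicate 8 (adjusted p = 0.056). Th, the rate-limiting enzyme of catecholamine synthesis that defines sympathetic nerve fibres, was under the filter, with means of 5.21, 5.38 and 4.83 in treated, vehicle and SD hearts.

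On the Gq side, phospholipase C beta and protein kinase C genes had 1 of 8 tested genes higher and 1 lower in vehicle dTGR against SD (median 0.05), and 0 called in treated against vehicle dTGR (median 0.07). Plce1, a phospholipase C of cardiomyocytes, was higher than in SD in vehicle dTGR (0.27 ± 0.08, adjusted p = 0.00973, 8 of 8 arrays) and in treated dTGR (0.44 ± 0.07, adjusted p = 4.03e-05, 12 of 12 arrays). Dgkz, a diacylglycerol kinase that removes the second messenger of Gq signals, was lower in vehicle dTGR than in SD (-0.59 ± 0.13, adjusted p = 0.000841, 8 of 8 arrays), a call that was lost with the mean of its probes in place of the brightest (-0.33, adjusted p = 0.11).

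Gcgr was the gene of the set whose group means spanned at least 1 on the log2 scale (3.19). The genes with the most similar profile, by the root mean square difference of levels over the 28 arrays after each gene was centred on its own mean, were Kcna2 (0.58), Dynap (0.66) and Gabrb2 (0.69), where the median over all genes was 1.36. Kcna2, a voltage-gated potassium channel subunit, averaged 9.46 ± 0.41 in treated dTGR, 9.09 ± 0.43 in vehicle dTGR and 11.46 ± 0.52 in SD (standard deviations). Dynap averaged 10.35 ± 0.42 in treated dTGR, 9.53 ± 0.72 in vehicle dTGR and 11.47 ± 0.39 in SD, and Gabrb2, a GABA-A receptor subunit, averaged 9.05 ± 0.61, 8.25 ± 0.74 and 10.14 ± 0.43 in the same groups. These genes were chosen by their likeness, so their order of groups is a description.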

How the data were processed

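For 28 left ventricle samples, the deposited files give a normalized intensity for each probe on each array. The submitters' processing notes name RMA without a version. Per the labels, 250 ng of total RNA was amplified and labelled with biotin. The deposited intensity values were on a linear scale, with array medians from 99.5 to 107, so log2 was taken first. All arrays differed from each other, and precision is limited by how many there are.

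Of 36685 probes, 14824 have a single gene symbol in the platform annotation, 829 have several and 21032 have none. The filter kept probes whose mean log2 value exceeded the 30th percentile of all probes (5.65), and the brightest probe stood for each gene. All 28 arrays entered a single fit in R 4.3.3 with limma 3.58.1, with a mean per group and an intensity trend, tested on both sides. On simulated arrays for vehicle dTGR against SD (11493 genes, 200 changed), the fit recovered 86% of changes of size 1 and 52% of size 0.5, at 3.5% false calls. The labels name no batch, litter or day. Animal numbers form a separate series in each group, and what these series stand for is not stated. An effect tied to them cannot be told apart from group. P-values weigh each difference of group means against the spread between these samples within groups.

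The members, lists and alternatives were chosen with earlier results of these data known. Named genes are the members, up to 3 called genes per list and comparison with the largest differences, a fixed set given called or not, and the 3 genes nearest to a member whose group means span at least 1. The alternatives were other filters, probe summaries, priors, array weights, pairs of groups, scalings, pseudocounts of 1 and 16, and leaving out arrays. Promoter sequences are from RefSeq on GRCr8.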

Additional observations from a re-analysis of the deposited data

Results flagged for a closer look

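The level of Adcy5 in SD replicate 1 was 13.22, and the nearest of the other SD arrays stood at 13.003. This gap was 0.533 of the range of the SD group, above Dixon's 95% critical value for 8 arrays. It was the only such value among 14 groups of 8 arrays looked at. Chance gives such a value in about 1 in 20 groups, so 1 among 14 groups is not unusual. Without this array the difference of vehicle dTGR from SD was -0.58.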

How the results depend on the processing

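Each difference was computed again under 40 alternatives, 28 of which left out 1 array each. Exceptions were Gnas (38 alternatives) and Prkar1b (39 alternatives), which did not pass the filter in the rest. Of 21 differences of the 7 genes, 16 kept their direction and their side of the threshold under all 40, among them all 12 that were called. Values changed sign for Adcy6 in vehicle dTGR against SD without vehicle replicates 6 and 7 (0.037), and for Gnaq in treated against vehicle dTGR without them (-0.0375). With 1 array left out, sign changes occurred in 4 differences near 0 that were not called: Adrb1 in treated against vehicle dTGR (-0.0093 to 0.17), Arrb1 in vehicle dTGR against SD (-0.013 to 0.092), Gnai2 in treated against vehicle dTGR (-0.021 to 0.029) and Gnaq in treated against vehicle dTGR (-0.0031 to 0.086). Without vehicle replicates 6 and 7, calls of treated against vehicle dTGR were 32 pathway genes in place of 21 and 2065 of all genes in place of 1125. With 1 array left out, the count over all genes ran from 659, without vehicle replicate 4, to 1558, and was 733 without vehicle replicate 5. The cause was not tested. Scaling moved no split of higher and lower calls over all genes by more than 10 percentage points. No paired analysis was possible because animal numbers differ between the groups. Signal over background cannot be given, since the deposited values carry no background.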
